A study of Mus musculus with 10 samples.

Results

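T cells of the axillary lymph node were compared between mice bearing a 4T1 tumour and mice bearing a 67NR tumour. 4T1 and 67NR are mouse mammary carcinoma lines, and 4T1 spreads to distant organs while 67NR does not. The cells came from 1 droplet library of sorted T cells, in which each condition carried its own antibody hashtag. A droplet was assigned to a condition when the count of its top hashtag was at least 10 and at least 3 times that of the next. It was kept with at least 500 gene UMIs (unique molecular identifiers, counted as RNA molecules), at most 10% mitochondrial UMIs and at least 1 UMI of Cd3e, a chain of the T cell receptor complex. This gave 2372 cells of 4T1 and 2380 of 67NR, 4752 of the 56333 barcodes in the 5 gene libraries of the series. The same rule gave 2236 cells of naive mice, which are shown as a reference level.

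All mice were 8-week-old wild-type BALB/C females. Tumour cells had been placed orthotopically in the fourth mammary pad, and nodes were taken 18 days later, at a tumour size of 500 mm3. Naive mice were untreated. The hashtag of the 4T1 condition is named 4T1.pre-met and that of the naive condition CTRL.NDLN. The name of the library also lists LPS (bacterial lipopolysaccharide), for which its table holds no hashtag. At least 3 mice per condition were used, per the labels, but no cell can be tied to a mouse, so each condition is 1 pool. No test was possible between single pools. The 95% intervals given with ratios and shares cover counting error only, and leave out the variation between mice, nodes and sorts. Those of ratios treat each UMI as independent, so they also leave out the variation between cells. They are too narrow where few droplets hold most UMIs of a gene.

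T cells recognise peptides through their receptor and divide into helper cells, which carry Cd4 and steer other immune cells with cytokines, and cytotoxic cells, which carry Cd8 and kill with granzymes and perforin. Regulatory T cells express the transcription factor Foxp3 and restrain both. In a node that drains a tumour, these cells meet antigen carried from the tumour, and type I interferon induces a broad set of antiviral genes in them.

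The cells fell into 3 classes by their UMIs. Foxp3 cells had at least 1 Foxp3 UMI, and Cd4 cells without Foxp3 had at least 1 Cd4 UMI and no Foxp3 UMI. Cd8 cells had at least 2 UMIs of Cd8a and Cd8b1 together and no Cd4 UMI. Of the 4T1 and 67NR cells, 4488 lay in 1 or more classes. 137 cells of 4T1 and 127 of 67NR lay in none, and 44 and 46 lay in both the Foxp3 and the Cd8 class. With or without a Cd4 UMI, 83 of the 531 Foxp3 cells of 4T1 and 82 of the 593 of 67NR held at least 2 Cd8 UMIs. Their part in the results of the Foxp3 class was not tested. Median UMIs per cell were 11884.5 in 4T1, 11166.5 in 67NR and 10110.5 in naive cells.

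The labelled cell type was checked against its markers. All 11 T cell markers outside the gate were measured in each class of both tumour conditions, and together they made up 5812 to 7302 CPM (the UMIs of a gene, scaled to 1e+06 UMIs in the pool) there. Summed markers of fibroblasts and of red cells stayed under 1 CPM in each class of both tumour conditions. Summed B cell markers lay between 64.9 and 199.7 CPM, and macrophage, monocyte and neutrophil markers between 61.6 and 253 CPM. Summed dendritic cell markers lay between 40.7 and 288 CPM in the tumour conditions, and in Foxp3 cells they were far higher in naive nodes (186 CPM in 4T1, 170 in 67NR and 650 in naive cells). Between 1.75% and 3.95% of the droplets of a class in the tumour conditions held UMIs of B cell or myeloid markers by the rule used to remove them in an alternative. Of the barcodes in the library, 8 to 65 also occurred in each of the 4 other gene libraries.

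The classes took similar shares of the 2 tumour conditions. Foxp3 cells were 531 of 2372 cells in 4T1 (22.4%, 20.7 to 24.1%), 593 of 2380 in 67NR (24.9%, 23.2 to 26.7%) and 466 of 2236 among naive cells (20.8%, 19.2 to 22.6%). Cd4 cells without Foxp3 were 630 (26.6%), 598 (25.1%) and 598 (26.7%), and Cd8 cells were 1118 (47.1%), 1108 (46.6%) and 1010 (45.2%), in the same order. The largest gap between the tumour conditions was that of Foxp3 cells, and the intervals of 4T1 and 67NR overlapped in all 3 classes. After each cell was thinned to 4000 UMIs, Foxp3 cells were 15.4% of 4T1, 16.6% of 67NR and 14.5% of naive cells. The sort sets the make-up of the library, so these are shares of sorted cells.

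The gate genes are given as levels only. In Foxp3 cells, Foxp3 stood at 222 CPM in 4T1, 236 in 67NR and 244 in naive cells. In Cd4 cells without Foxp3, Cd4 stood at 287, 314 and 285 CPM. In Cd8 cells, Cd8b1 stood at 626, 630 and 621 CPM and Cd8a at 331, 301 and 306.

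A gene was counted as measured with at least 50 UMIs in the higher of the 2 tumour pools, and as called when its pooled CPM differed by at least 1.5-fold (0.585 on the log2 scale). Ratios are log2 of 4T1 over 67NR throughout, so that a negative value is lower in 4T1. Most genes differed little: 97.3% of 9254 measured genes in Foxp3 cells, 96.1% of 9131 in Cd4 cells without Foxp3 and 98.1% of 10331 in Cd8 cells lay within 1.5-fold. In Foxp3 cells 129 genes were called higher in 4T1 (1.39%) and 124 higher in 67NR (1.34%). In Cd4 cells without Foxp3 the counts were 245 (2.68%) and 115 (1.26%), and in Cd8 cells 90 (0.871%) and 110 (1.06%). These percentages are the background against which counts within a gene list are read. The genes called were mostly of low level, with a median of 8.77 and 9.53 CPM in Foxp3 cells against 31.4 CPM over all measured genes.

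**Figure D1:**
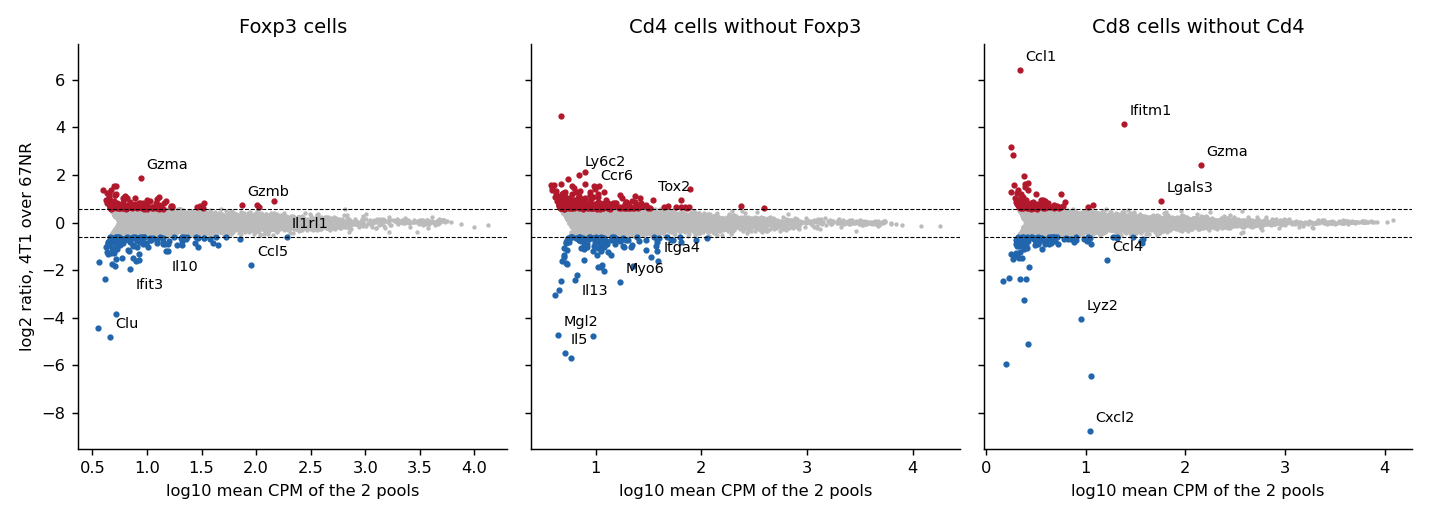
Log2 ratio of 4T1 over 67NR (y axis) against the log10 of the mean CPM of the 2 pools (x axis) for each measured gene, 1 panel per class, with lines at 1.5-fold and coloured points for genes past it. Called genes sit mostly at low levels, and Gzma and Ifitm1 in Cd8 cells and Itga4 in Cd4 cells without Foxp3 are among the named exceptions.

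In Foxp3 cells, genes of the type I interferon response were lower in 4T1 than in 67NR. Of 37 genes on the list, 32 were measured, and 30 of the 32 had a ratio below 0, where 50.2% of all measured genes did. 8 were called lower in 4T1, against 1.34% of all measured genes, and 0 were called higher. The median ratio of the list was -0.26, against -0.00 over all measured genes. It lay between -0.29 and -0.24 over the 12 settings in which it was computed, which leave out the limit of 200 UMIs and no limit. A lean to 1 side was not particular to this list in Foxp3 cells. All 11 T cell markers lay below 0 (median -0.16), as did 28 of 32 genes of cytokine receptors and the Stat pathway (median -0.13). On the proliferation list 28 of 29 lay above 0. Once each cell was thinned to 4000 UMIs, 24 members still reached 50 UMIs and 1 was called lower. The 8 genes were Ifit3, Ifi206, Oas3, Rsad2, Oas1a, Ifi209, Slfn5 and Usp18. Of these, Oas1a, Ifi209, Slfn5 and Usp18 fall outside the rule for named genes and were added after their values were seen.

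Interferon-stimulated response elements, which the factors of type I interferon signalling bind, carry the pattern of GAAA, 2 bases of any kind and GAAA. It was searched on both strands in the 250 bases before the start of each gene (RefSeq, GRCm38.p6, from a C57BL/6J reference while these mice were BALB/C). Of 27025 genes with a promoter sequence, 936 (3.46%) held it. On the interferon list 29 of 37 genes had a promoter sequence and 17 of the 29 (58.6%) held it. Among the genes called lower in Foxp3 cells, 6 of the 7 with a promoter sequence held it, as did 9 of the 18 other measured members. Usp18 had no sequence in the table, and Ifi209 held no match in this window. The 6 windows are shown because they belong to the called genes. Each is written 5′ to 3′ along the gene's strand, with the match in capitals, which reads as TTTC, 2 bases and TTTC where the match is on the opposite strand. A match describes these letters and is no evidence of binding.
Ifit3 (chr19:34583382-34583441, + strand): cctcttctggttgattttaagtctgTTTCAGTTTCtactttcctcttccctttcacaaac
Ifi206 (chr1:173491324-173491383, - strand): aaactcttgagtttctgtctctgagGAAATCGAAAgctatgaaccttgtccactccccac
Oas3 (chr5:120777700-120777759, - strand): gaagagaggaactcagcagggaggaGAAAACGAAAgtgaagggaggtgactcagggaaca
Rsad2 (chr12:26456538-26456597, - strand): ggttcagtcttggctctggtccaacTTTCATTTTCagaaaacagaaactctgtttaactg
Oas1a (chr5:120907526-120907570, - strand): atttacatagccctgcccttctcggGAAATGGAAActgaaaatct
Slfn5 (chr11:82951922-82951981, + strand): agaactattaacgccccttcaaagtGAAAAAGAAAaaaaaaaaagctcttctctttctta
Ifit3 held a further match upstream of the one shown, and in Oas1a a further match overlaps it.

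Ifit3, which belongs to a family that binds foreign RNA, had 26 UMIs in 18 cells of 4T1, 100 in 30 cells of 67NR and 54 in 17 naive cells. Its level was thus 2.89 CPM in 4T1, 11.1 in 67NR and 8.42 in naive cells, a ratio of 4T1 over 67NR of -1.94 (-2.62 to -1.31). Ifi206, one of the DNA-sensing Ifi200 family, stood at 3.11, 8.75 and 3.74 CPM, a ratio of -1.49 (-2.17 to -0.86). 67NR held the highest level of both genes, and no droplet held more than 15 of their UMIs in either tumour condition. Oas3, which makes the messenger that activates the RNA-degrading enzyme RNase L, had 37, 86 and 31 UMIs in 4T1, 67NR and naive cells, a ratio of -1.21 (-1.81 to -0.64). Rsad2, the antiviral enzyme viperin, had 37, 83 and 34 UMIs, a ratio of -1.16 (-1.76 to -0.59). For both genes the 4T1 and naive counts were alike, and 67NR stood above them. After thinning the ratio of Oas3 was -0.21, while those of Ifit3, Ifi206 and Rsad2 were -1.31, -1.19 and -1.39.

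The rest of the called members had milder ratios. Oas1a, of the same enzyme family as Oas3, had 83, 139 and 54 UMIs (-0.74, -1.15 to -0.34). Ifi209 had 263, 422 and 229 UMIs (-0.68, -0.91 to -0.45). Usp18, which removes the ubiquitin-like protein Isg15 and dampens the interferon receptor, had 98, 156 and 59 UMIs (-0.67, -1.05 to -0.29). Slfn5 departed from the other 7 in its naive level: 17.7 CPM in 4T1, 28.1 in 67NR and 32.3 in naive cells (-0.67, -0.97 to -0.38). Isg15 itself stood at 133 CPM in 4T1, 166 in 67NR and 135 in naive cells, within 1.5-fold (-0.32, -0.43 to -0.21).

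Ifi27l2a, a mitochondrial interferon-induced protein, held much of the summed level of the list, and was singled out for that after its values were seen. It made up 52.3% of the list's UMIs in Foxp3 cells of 4T1, 55.9% in 67NR and 46.4% in naive cells. Its level was 2587 CPM in 4T1, 3398 in 67NR and 2138 in naive cells (-0.39, -0.42 to -0.37). Without it the summed UMIs of the list still gave a ratio of -0.18 (-0.21 to -0.16) in Foxp3 cells. The lower sum in 4T1 was therefore not that of a single gene.

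The interferon genes were also compared cell by cell, with each cell thinned to 4000 UMIs. The median Foxp3 cell held 19 UMIs of the list in 4T1, 23 in 67NR and 16 in naive cells. Cells with at least 40 such UMIs were 12.9% of the Foxp3 cells in 4T1 (10.2 to 16.1%), 20.5% in 67NR (17.3 to 24.0%) and 9.35% in naive cells (6.85 to 12.4%). The lower quartile was 14 UMIs in 67NR against 12 in 4T1 and the 95th percentile 67.75 against 54.7, while the 5th percentile was 6 in both. With Ifi27l2a left out, cells with at least 20 UMIs of the list were 14.0% in 4T1 (11.2 to 17.3%) and 17.4% in 67NR (14.4 to 20.7%), and these intervals overlap.

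**Figure D2:**
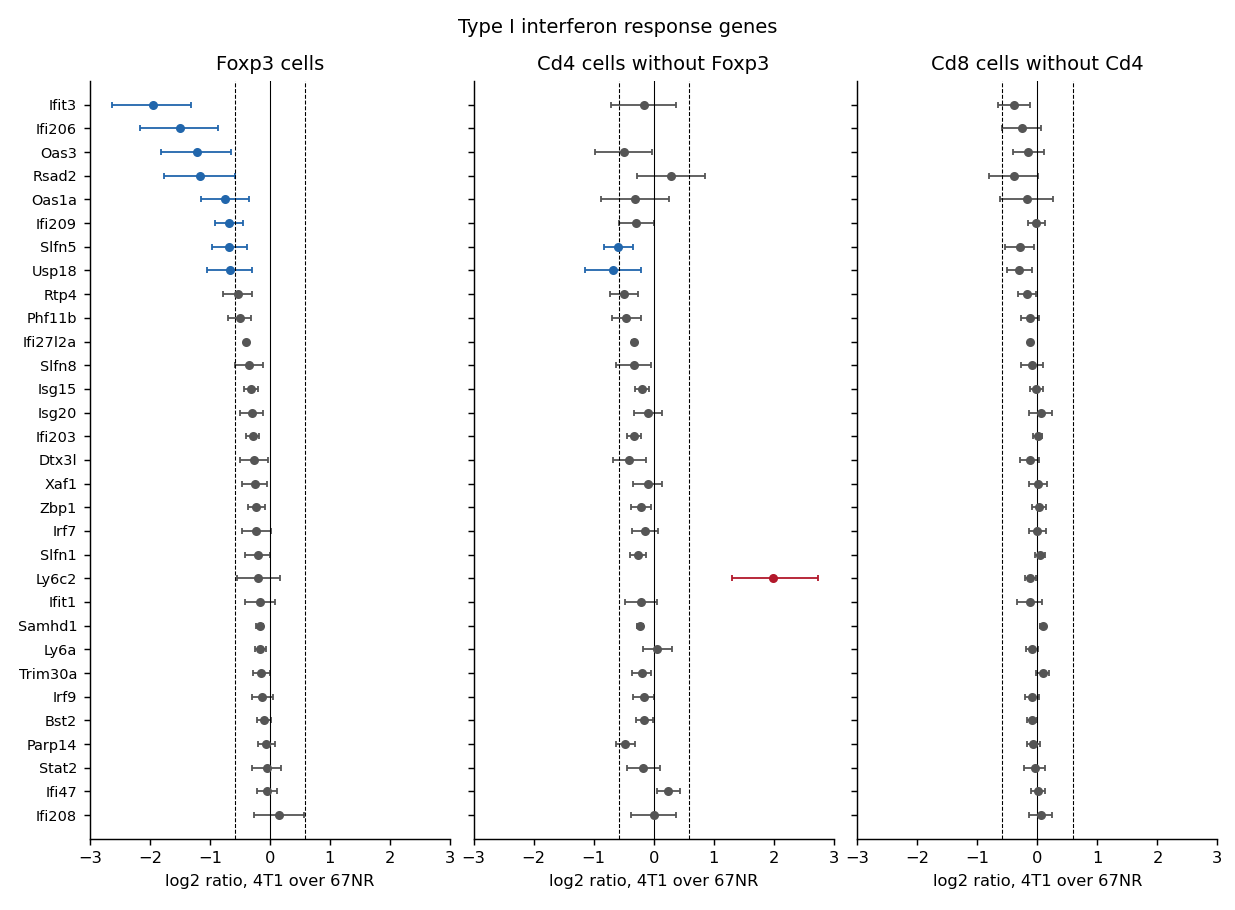
Log2 ratio of 4T1 over 67NR (x axis) of the measured genes of the type I interferon list in the 3 classes (1 is not drawn), with exact 95% intervals that cover counting error only. In Foxp3 cells 30 of the 31 drawn genes lie below 0 and Ifit3 lies lowest at -1.94, while in Cd8 cells 22 of 31 lie below 0 and none is past 1.5-fold.

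In the other classes fewer genes of the same list were called lower in 4T1 before thinning. In Cd4 cells without Foxp3, 27 of 31 measured genes lay below 0, against 41.2% of all measured genes, and the median ratio was -0.21. Usp18 (-0.67) and Slfn5 (-0.59) were called lower in 4T1, against 1.26% of all genes, and Ly6c2 was called higher. Ifi27l2a stood at 2559 CPM in 4T1, 3226 in 67NR and 1924 in naive cells of this class. Without it the summed UMIs of the list gave a ratio of -0.20 (-0.23 to -0.17) in this class. That was much as in Foxp3 cells (-0.18, -0.21 to -0.16), while Cd8 cells had -0.03 (-0.05 to -0.01). Cells with at least 40 list UMIs of 4000 were 10.7%, 17.3% and 9.31%, so the order of the conditions was that of the Foxp3 cells. In Cd8 cells, 23 of 32 measured genes lay below 0, against 55.0% of all measured genes, with a median of -0.09 and none past 1.5-fold (2 after thinning), where 0.871% of all genes were called higher and 1.06% lower. Ifit3 in Cd8 cells stood at 10.3 CPM in 4T1, 13.5 in 67NR and 20.4 in naive cells, so that here naive cells held the highest level. Whether the classes differ in this respect was not tested.

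Outside the interferon list, several effector and tissue-type genes of regulatory T cells were lower in 4T1. Of 30 genes on the regulatory T cell list, 29 were measured and 4 were called lower in 4T1 (against 1.34% of all genes), with 0 called higher and a median of -0.16. The 11 T cell markers outside the gate were also all below 0 in Foxp3 cells, with a median of -0.16 and 0 called. The median of the regulatory list was thus no lower than that of general T cell markers. Il10, the main suppressive cytokine of these cells, had 82 UMIs in 29 cells of 4T1, 187 in 57 cells of 67NR and 90 in 32 naive cells. Its ratio was -1.19 (-1.58 to -0.80), and -0.63 after thinning. Cells with an Il10 UMI were 5.46%, 9.61% and 6.87% of Foxp3 cells, and 0.894%, 1.17% and 0.990% of Cd8 cells, which hold little Il10 and are deeper (median 13804 UMIs in 4T1 and 13178 in 67NR, against 11212 and 10634 in Foxp3 cells). The Foxp3 shares thus lay above that background in each condition, with 67NR highest.

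Il1rl1, the receptor for the alarmin interleukin 33 and a marker of tissue-type regulatory T cells, stood at 150 CPM in 4T1, 231 in 67NR and 119 in naive cells (-0.63, -0.73 to -0.53). Klrg1, a receptor of terminally differentiated effector cells, stood at 54.4, 87.0 and 29.5 CPM (-0.68, -0.84 to -0.51). Socs2, an inhibitor of cytokine signalling, stood at 26.1, 40.9 and 26.0 CPM (-0.65, -0.89 to -0.41). For Il1rl1 and Klrg1 both tumour conditions stood above naive, and 67NR stood highest for all 3. The identity genes of the lineage differed little: Ikzf2 stood at 2555 CPM in 4T1 and 2605 in 67NR (-0.03), Il2ra, a chain of the interleukin 2 receptor, had a ratio of -0.14, and Ctla4, which strips costimulatory ligands, -0.19.

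Among genes of checkpoint and effector function, Lag3, an inhibitory receptor for MHC class II, had 116 UMIs in 67 Foxp3 cells of 4T1, 221 in 101 cells of 67NR and 74 in 47 naive cells. Its ratio was -0.93 (-1.26 to -0.60), but -0.23 after thinning. Cd160, another inhibitory receptor, had 35, 98 and 35 UMIs (-1.48, -2.08 to -0.91). Both receptors were highest in 67NR, and thinning left a ratio of -0.26 for Cd160, within 1.5-fold. Fasl, the ligand that triggers death through Fas, stood at 3.89, 11.9 and 16.7 CPM (-1.61, -2.20 to -1.05), lowest in 4T1 and highest in naive cells. Pparg, a nuclear receptor of fat-tissue regulatory T cells, had 20, 71 and 41 UMIs (-1.83, -2.62 to -1.09), and Asb2, part of a ubiquitin ligase, 12, 62 and 10 (-2.37, -3.39 to -1.46).

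Of 16 measured cytotoxic genes in Foxp3 cells, 3 were called higher in 4T1 (against 1.39%) and 6 lower (against 1.34%). The part of Foxp3 droplets with Cd8 UMIs in these values was not tested. Gzmb, the granzyme that cleaves caspases, stood at 92.7 CPM in 4T1, 56.1 in 67NR and 35.7 in naive cells (0.73, 0.56 to 0.89). It was seen in 101, 91 and 41 cells, and 4T1 was highest, with a ratio of 0.46 after thinning. Gzmk pointed the other way, with 20, 66 and 18 UMIs in 9, 18 and 12 cells (-1.72, -2.52 to -0.98). Gzma had 125, 34 and 13 UMIs, but 99 of the 125 lay in 1 droplet, and without the top droplet of each pool its ratio was -0.10. Ccl5, a chemokine of effector cells, had 364, 1270 and 327 UMIs (-1.80, -1.97 to -1.63), of which 751 lay in 1 droplet of 67NR, and -0.86 remained without the top droplets.

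Genes higher in 4T1 Foxp3 cells were fewer on the fixed lists. Ccr10, a receptor for skin and mucosal chemokines, stood at 16.1 CPM in 4T1, 9.53 in 67NR and 17.8 in naive cells (0.76, 0.36 to 1.16). Klf4, a factor linked to quiescence, stood at 20.8, 13.0 and 26.7 CPM (0.68, 0.34 to 1.03). For both genes it was 67NR that stood apart, below 4T1 and naive. Penk, which encodes the opioid precursor proenkephalin, was singled out after its values were seen: 1709 UMIs in 84 cells of 4T1, 924 in 86 cells of 67NR and 684 in 58 naive cells (0.89, 0.77 to 1.01). The cells with Penk were thus about as many in both tumour conditions and held more of it in 4T1. All but 1 of the 29 measured proliferation genes had a ratio above 0, with a median of 0.20 and none past 1.5-fold. Cells with both Mki67 and Top2a, which mark dividing cells, were 20.9% in 4T1, 18.4% in 67NR and 12.2% in naive Foxp3 cells.

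Single droplets made some of the largest ratios in Foxp3 cells. Il4, a cytokine of type 2 helper cells, had 6, 87 and 3 UMIs, with 47 of the 87 in 1 droplet. Clu and Il1b, which are no markers of regulatory T cells, had 83 and 64 UMIs in 67NR, 82 and 61 of them in 1 droplet each, and 0 in 4T1. The B cell marker Ms4a1 was called higher in 4T1 but had a ratio of -0.95 when the top hashtag had to be at least 10 times the next. Of the 10 B cell markers, 5 were measured in Foxp3 cells, and 4 of them were called higher in 4T1 (against 1.39%), with a median of 0.59. B cell markers summed to 199.7 CPM in 4T1, 196 in 67NR and 307 in naive Foxp3 cells. Their part in these results was not tested, and the interferon count was 9 without droplets holding B cell or myeloid markers, against 8 with them.

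In Cd4 cells without Foxp3, Itga4, Il13, Il1rl1 and Myo6 were lower in 4T1, while Ccr6, Tox2 and Tigit were higher. Itga4, the integrin chain through which T cells bind inflamed vessels, had 169 UMIs in 68 cells of 4T1, 437 in 114 cells of 67NR and 281 in 111 naive cells. Its levels of 18.8, 58.3 and 37.6 CPM gave a ratio of -1.63 (-1.90 to -1.37). Thinned to 4000 UMIs, cells with an Itga4 UMI were 5.89% in 4T1 (4.18 to 8.03%), 12.4% in 67NR (9.81 to 15.3%) and 9.48% in naive cells (7.24 to 12.1%). The 4T1 and 67NR intervals did not overlap, and no droplet held more than 33 Itga4 UMIs. These shares come from the same counts as the ratio of Itga4 and are no separate support for it. Of 20 measured chemokine receptors and homing genes in this class, 1 was called lower (against 1.26%) and 2 higher (against 2.68%), with a median of -0.01. In Cd8 cells the ratio of Itga4 was -0.38, within 1.5-fold, and the difference between the classes was not tested.

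Of 15 measured cytokines and chemokines in this class, 4 were called lower in 4T1, against 1.26% of all genes, and 0 higher. Il13, a cytokine that drives mucus and tissue repair, had 21 UMIs in 5 cells of 4T1, 81 in 11 cells of 67NR and 58 in 15 naive cells (-2.21, -2.97 to -1.50). Il5, the growth factor of eosinophils, had 2, 75 and 3 UMIs, with 62 of the 75 in 1 droplet. Il4, the signature cytokine of the type 2 lineage, had 493 UMIs in 56 cells, 522 in 79 and 104 in 23 (-0.34, -0.52 to -0.16), within 1.5-fold. Few cells carried these genes, and the share of cells is given beside the sum: those with Il4, Il5 or Il13 were 60 of 630 in 4T1 (9.52%), 84 of 598 in 67NR (14.0%) and 34 of 598 among naive cells (5.69%). In Cd8 cells, which make little of the 3 cytokines, the shares were 0.716%, 0.361% and 0.792%.

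The cells with the type 1 cytokine Ifng pointed the other way. They were 63 of 630 in 4T1 (10%), 31 of 598 in 67NR (5.18%) and 46 of 598 among naive cells (7.69%). The summed level of Ifng nevertheless differed less, at 28.6, 23.5 and 17.1 CPM (0.29, 0.00 to 0.57). Without the droplets of this gate that hold a Cd8 UMI, the ratio of Ifng was 0.66 (0.31 to 1.02), past 1.5-fold, and in the droplets with one it was -0.56 (-1.06 to -0.05). Cells with Il21, the cytokine with which follicular helper cells support B cells, were 31, 12 and 13. Il2, the growth factor of activated T cells, stood at 40.8, 67.7 and 44.9 CPM (-0.73, -0.93 to -0.53), in 107, 118 and 135 cells. Median depth was 10532.5 UMIs in 4T1, 9944.5 in 67NR and 9265 in naive cells of this class.

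Il1rl1, Pparg and Gata3 had the same sign as Il13. Il1rl1, the receptor for interleukin 33, had 165 UMIs in 43 cells of 4T1, 309 in 52 of 67NR and 229 in 49 naive cells (-1.17, -1.45 to -0.89). Pparg, which supports type 2 helper cells, had 18, 80 and 24 UMIs (-2.41, -3.24 to -1.66), with 30 of the 80 in 1 droplet. Gata3, the lineage factor itself, stood at 115, 156 and 120 CPM (-0.44, -0.56 to -0.32), within 1.5-fold. All 3 genes were highest in 67NR. Myo6, a motor protein, stood at 5.13 CPM in 34 cells of 4T1, 28.6 in 50 cells of 67NR and 6.03 in 29 naive cells (-2.48, -2.97 to -2.01), again with 67NR alone above naive.

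Most genes that T cell receptor signals induce lay below 0 as well. On the list of receptor-induced early genes 12 of 15 lay below 0 and the median was -0.27, against 0.04 over all measured genes, with 2 called lower (against 1.26%). Among the genes of activation and regulation, Lag3 stood at 18.8, 31.9 and 12.5 CPM (-0.76, -1.05 to -0.47). Egr3, a factor induced by receptor signals, had 69, 136 and 45 UMIs (-1.24, -1.68 to -0.81). Nrp1, a semaphorin receptor, stood at 27.1, 48.2 and 20.1 CPM (-0.83, -1.07 to -0.59), and Entpd1, which breaks down extracellular ATP, at 12.6, 21.5 and 12.5 CPM (-0.77, -1.13 to -0.41). All 4 genes were highest in 67NR. Gzmb had 43, 131 and 8 UMIs in 21, 14 and 8 cells (-1.87, -2.40 to -1.36), with 57 of the 131 in 1 droplet. On the NF-kB list 19 of 21 genes lay below 0 with a median of -0.19 and none past 1.5-fold.

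Among the genes higher in 4T1, Tox2, a factor of follicular helper cells, had 411 UMIs in 139 cells of 4T1, 178 in 89 cells of 67NR and 166 in 71 naive cells (0.95, 0.69 to 1.21). Thinned to 4000 UMIs, cells with Tox2 were 14.3% in 4T1 (11.7 to 17.3%), 7.28% in 67NR (5.32 to 9.68%) and 6.77% in naive cells (4.88 to 9.10%), against 0.895%, 0.904% and 0.802% of Cd8 cells. The 4T1 interval lay above those of 67NR and naive cells of this class. These shares come from the same counts as the ratio of Tox2 and are no separate support for it. Tigit, an inhibitory receptor also found on follicular helper cells, stood at 39.3, 25.6 and 21.2 CPM (0.62, 0.36 to 0.88), in 185, 117 and 102 cells. Of that lineage, Cxcr5, which guides cells into B cell follicles, had a smaller ratio of 0.21 (-0.16 to 0.58) and Pdcd1, the receptor PD-1, 0.35 (0.22 to 0.48). Most of the follicular helper list went the other way: 13 of its 18 measured genes lay below 0. Its median was -0.17, against 0.04 over all measured genes, with 1 gene called higher (against 2.68%) and 0 lower. Cells with both Cxcr5 and Pdcd1 were 41 in 4T1 (6.51%), 32 in 67NR (5.35%) and 17 among naive cells (2.84%).

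Ccr6, the receptor for the chemokine Ccl20, had 127 UMIs in 47 cells of 4T1, 40 in 29 cells of 67NR and 145 in 61 naive cells (1.41, 0.88 to 1.96). Ikzf3, the lymphocyte factor Aiolos, stood at 77.3, 49.5 and 108 CPM (0.64, 0.46 to 0.83), and Ctsw, a protease of cytotoxic lymphocytes, at 37.1, 22.6 and 34.8 CPM (0.72, 0.45 to 0.99). For Ccr6, Ikzf3 and Ctsw 4T1 lay near or below the naive level and 67NR was lowest. Plac8 had 129, 37 and 110 UMIs (1.54, 1.00 to 2.11). Penk, named after its values were seen, stood at 114, 42.7 and 64.4 CPM (1.41, 1.23 to 1.60). Proliferation genes were all above 0 in this class (29 of 29, median 0.31), and Hist1h1b, a linker histone made in S phase, was the 1 past 1.5-fold, at 470, 310 and 383 CPM (0.60, 0.53 to 0.67), against 2.68% of all genes.

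The Cd4 gate also let in droplets with Cd8 UMIs, and more of them in 4T1. Droplets with at least 1 such UMI were 132 of 630 in 4T1 (21.0%), 105 of 598 in 67NR (17.6%) and 120 of 598 among naive cells (20.1%), and Cd8b1 stood at 84.6, 43.5 and 43.4 CPM. Without them, an alternative added after the data were seen, Itga4 kept a ratio of -1.57, Il13 -2.27, Tox2 1.13, Ccr6 2.12 and Penk 1.32. Ccl5 went from -1.44 to -0.34 and Zbtb16, the factor of innate-like T cells, from 1.55 to 0.71. Samd3, Ifngas1 and Mt2 changed sign without these droplets, and Ly6c2 did so, to -0.34, when the gate needed at least 2 Cd4 UMIs. The B cell marker Cd79b was also higher in 4T1 here (116, 22 and 42 UMIs, of which 50 of the 116 lay in 1 droplet), with summed B cell markers at 119, 64.9 and 127 CPM. Of the 10 B cell markers, 5 were measured here, and 4 of them were called higher in 4T1 (against 2.68%), with a median of 1.21. Of the 12 dendritic cell markers, 5 were measured in this class, and 4 of them, H2-Aa, H2-Ab1, Cd74 and Zbtb46, were called lower in 4T1 (against 1.26%). The median of the 5 was -0.61, and the markers summed to 180 CPM in 4T1, 288 in 67NR and 300 in naive cells, with Clec9a and Siglech at 0 in both tumour conditions. Without droplets holding B cell or myeloid markers, another alternative added after the data were seen, Itga4 had a ratio of -1.65 and Il13 of -2.22. The part of B cell and dendritic cell RNA in the results was not tested.

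**Figure D3:**
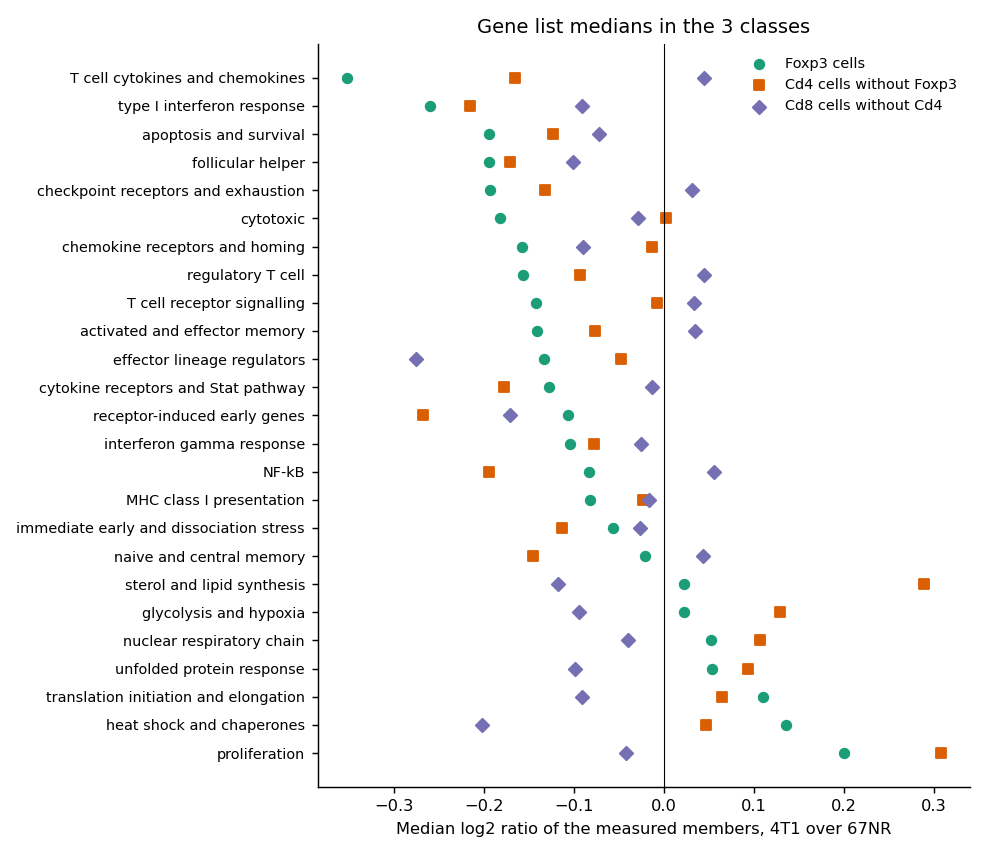
Median log2 ratio of 4T1 over 67NR (x axis) of each gene list in the 3 classes, with 1 point per list and class and a line at 0. The interferon list lies at -0.26 in Foxp3 cells, -0.21 in Cd4 cells without Foxp3 and -0.09 in Cd8 cells, and the proliferation list at 0.20, 0.31 and -0.04.

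In Cd8 cells, 2 genes stood apart in 4T1, Gzma and Ifitm1, and both rested on few cells. Gzma, granzyme A, lies at chr13:113093825-113100981 (- strand, GRCm38, GENCODE) and Ifitm1, a membrane protein that restricts virus entry, at chr7:140967221-140969825 (+ strand). Gzma had 4780 UMIs in 100 cells of 4T1, 913 in 103 cells of 67NR and 731 in 60 naive cells. Its level was 243 CPM in 4T1, 46.0 in 67NR and 48.8 in naive cells, a ratio of 2.40 (2.30 to 2.50). The cells with Gzma were as many in 67NR as in 4T1 and held less of it. In 4T1 the fullest 3 droplets held 514, 505 and 440 UMIs, and in 67NR 193, 187 and 129. Without the top droplet of each pool the ratio was 2.58.

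**Figure D4:**
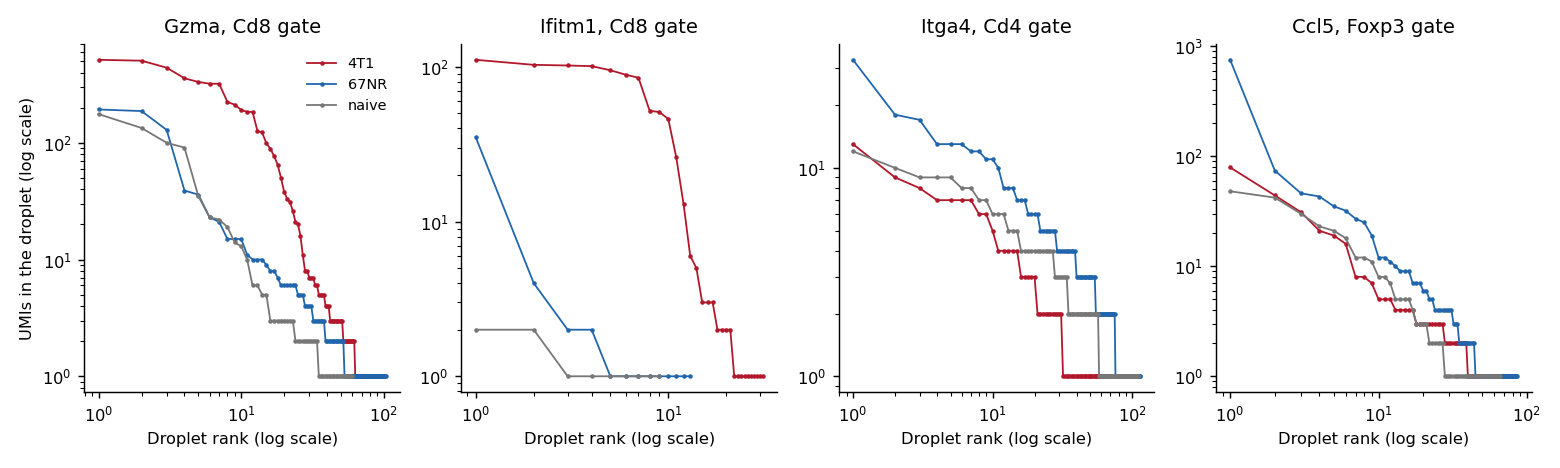
UMIs per droplet (y axis, log scale) of the highest ranked droplets (x axis) for genes carried by few cells, in 4T1, 67NR and naive pools. For Gzma in Cd8 cells the 4T1 droplets lie above those of 67NR from the first rank (514 against 193), and for Ifitm1 from 111 against 35.

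Ifitm1 had 912 UMIs in 31 Cd8 cells of 4T1, 52 in 13 cells of 67NR and 11 in 9 naive cells (4.14, 3.74 to 4.58). Droplets with at least 3 Ifitm1 UMIs numbered 17 in 4T1, 2 in 67NR and 0 among naive cells, which allows a naive share of up to 0.297% of the 1010 cells. Of the 17, 15 also held Gzma, all 17 held Nkg7, a granule protein of killer lymphocytes, 16 held Cxcr6, a homing receptor of tissue-resident cells, and 14 held Gzmb. All 17 held Trac, the constant region of the alpha chain, and none held Trdc, the constant region of the delta chain, or the natural killer genes Klrb1c and Fcer1g. None held Eomes, against 18 of the 38 droplets of 4T1 with at least 5 Gzma UMIs. A beta chain V segment was seen in 8 of the 17, and these held 6 different segments, with Trbv31 the commonest in 3. The cells were thus not of 1 receptor as far as these segments show, and they were deep, with a median of 21615 UMIs.

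Droplets with at least 5 Gzma UMIs numbered 38 of 1118 in 4T1 (3.40%), 27 of 1108 in 67NR (2.44%) and 15 of 1010 among naive cells (1.49%). Of these 31, 15 and 11 held Gzmb, 29, 14 and 8 held Cxcr6, and 30, 17 and 6 held Mki67, the marker of dividing cells. Itga1, an integrin of resident cells, was in 10 of the 38, 1 of the 27 and 1 of the 15. Natural killer markers summed to 324 CPM in 4T1, 153 in 67NR and 117 in naive Cd8 cells, and Gzma is on that list. It made up 4780 of the 6377 UMIs of the list in 4T1 and 913 of the 3030 in 67NR. Of the 5 measured markers, 4 lay below 0, with a median of -0.54. Gzma alone was called higher (against 0.871%), and 2 were called lower (against 1.06%). Ncr1, a defining marker of natural killer cells, had 0 UMIs in both tumour conditions.

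Further genes were higher in 4T1 Cd8 cells. Lgals3, the lectin galectin-3 of activated cells, had 1462 UMIs in 123 cells of 4T1, 796 in 94 cells of 67NR and 304 in 90 naive cells (0.89, 0.76 to 1.02). Csf1, the growth factor of macrophages, had 72, 26 and 26 UMIs in 37, 16 and 20 cells (1.48, 0.82 to 2.19). Il23r, the receptor for interleukin 23, had 76, 20 and 2 UMIs, with 46 of the 76 in 1 droplet. Below 1.5-fold, Ikzf2, the factor Helios, stood at 432, 307 and 365 CPM (0.49), Cxcr6 at 74.5, 54.1 and 80.9 CPM (0.46), and Ifng at 20.3, 15.0 and 29.3 CPM (0.44). For Cxcr6 and Ifng naive cells held the highest level, and 67NR the lowest.

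The chemokines Ccl3 and Ccl4, which attract other immune cells and are made on receptor stimulation, were lower in 4T1 Cd8 cells. Ccl4 had 162 UMIs in 58 cells of 4T1, 488 in 79 cells of 67NR and 163 in 41 naive cells (-1.58, -1.84 to -1.32). Ccl3 had 11 UMIs in 8 cells, 56 in 25 and 5 in 4 (-2.34, -3.42 to -1.39). 4T1 and naive cells were alike and 67NR stood above them for both. Jun, an immediate early factor, stood at 16.2, 25.2 and 16.6 CPM (-0.64, -0.85 to -0.43), and Il1r2, a decoy receptor for interleukin 1, had 62, 104 and 23 UMIs (-0.73, -1.21 to -0.27). Of 13 measured cytokines and chemokines, Csf1 was called higher (against 0.871%) and Ccl3 and Ccl4 lower (against 1.06%).

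Most heat shock genes lay below 0 in this class, 20 of 22 measured members, against 55.0% of all measured genes. Their median was -0.20, against -0.01 over all genes, and 3 were called lower (against 1.06%). Hspa1a, an inducible chaperone of the Hsp70 family, stood at 29.0 CPM in 4T1, 46.9 in 67NR and 15.6 in naive cells (-0.70, -0.85 to -0.54). Hspa1b, its near-identical neighbour, stood at 26.2, 44.9 and 19.5 CPM (-0.78, -0.93 to -0.62), and reads of the pair may be split between them by the counting. Hspb1, a small heat shock protein, had 24, 68 and 15 UMIs (-1.49, -2.23 to -0.80). Both tumour conditions lay above naive. In the other classes the median of the list was 0.14 in Foxp3 cells and 0.05 in Cd4 cells without Foxp3, while Hspa1a was -0.54 and -1.21 there. These genes also respond to cell handling, and the part of the sort or of dissociation was not tested.

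Most genes of Cd8 state did not differ past 1.5-fold. Eomes, a factor of memory cells, stood at 42.3 CPM in 4T1, 61.5 in 67NR and 34.3 in naive cells (-0.54, -0.67 to -0.41), and Gzmk at 33.1, 46.6 and 20.2 CPM (-0.50, -0.64 to -0.35). Gzmb stood at 64.4, 56.7 and 21.4 CPM (0.18, 0.07 to 0.30). Of 13 measured checkpoint and exhaustion genes only Tox2 was called, lower in 4T1 (against 1.06% of all genes), with 46, 75 and 31 UMIs (-0.69, -1.25 to -0.14, but -0.28 after thinning). Pdcd1 had a ratio of 0.05 (-0.05 to 0.15), and Tcf7, the factor of stem-like and naive cells, -0.02 (-0.08 to 0.04). Cells with both Mki67 and Top2a were 17.5% in 4T1, 16.1% in 67NR and 8.91% among naive cells, and the proliferation list had a median of -0.04. Il1b, Lyz2 and Cd14, which are myeloid genes, were called lower in 4T1. Without the top droplet of each pool Il1b had a ratio of 0.43. Cd14 then had no UMI left in 4T1, and its value of 0.01 is a bound with that pool set at 3 UMIs.

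Across classes, 56 genes with a gene symbol were called in the same direction in 2 or more. The share of all measured genes that this makes was not computed, so the count is not read as a result. Ifi44, an interferon-induced gene outside the list used here, Mnd1 and Ccr10 were singled out after their values were seen. Ifi44 was lower in 4T1 in each class, with 42 and 67 UMIs in Foxp3 cells of 4T1 and 67NR (-0.67, -1.26 to -0.09), 69 and 149 in Cd4 cells without Foxp3 (-1.37, -1.80 to -0.95) and 72 and 112 in Cd8 cells (-0.62, -1.07 to -0.18). Mnd1, which pairs chromosomes in meiosis, had ratios of -0.60, -1.88 and -0.91 in the same order. Ccr10 had ratios of 0.76, 0.72 and 0.69, the last in Cd8 cells, where it had too few UMIs to count as measured. Called lower in all 3 classes were Ifi44, Mnd1, Hspa1b and the myeloid gene Il1b. Called higher in all 3 were the B cell genes Cd79a (0.59, 1.21 and 0.88) and Ebf1 (1.08, 1.03 and 1.64). In Cd8 cells 2 of 5 measured B cell markers were called higher (against 0.871%). This group was listed after its values were seen, and the part of B cell and myeloid RNA was not tested. The 3 classes are separate cells of the same pools, apart from the cells that lay in both the Foxp3 and the Cd8 class, so such repeats are no replicates of the condition.

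T cell receptor V segments were spread alike in both tumour conditions. A beta chain segment was seen in 35.1% to 47.9% of the cells of a class in the tumour conditions, over 19 to 21 segments. The largest segment held between 13.9% and 18.4% of them. The widest gap in Cd8 cells named here was Trbv13-1, in 49 of 511 such cells of 4T1 (9.59%, 7.18 to 12.5%) and 74 of 531 of 67NR (13.9%, 11.1 to 17.2%), whose intervals overlap. It was singled out after the values were seen.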

How the data were processed

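Droplet libraries made with the 10x Genomics 3' kit had been deposited by the authors as UMI counts per gene or hashtag and barcode, without normalization. Per the submitters' processing notes, Cell Ranger 7.0 and the build mm10 were used. How cells were called, whether intron reads counted, which annotation served and how doublets were treated is not given in the sources used here. The T cell library held 8117 barcodes with 121022621 gene UMIs, the shallowest with 503. A hashtag was called on 7563 barcodes and not on 554 (6.83%), which were removed as doublets or unassigned. Droplets with cells of 1 condition stay in. 7210 called barcodes passed the limits on UMIs and mitochondrial share.

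UMIs were summed per condition and class and compared as CPM, without a test, since each condition is 1 pool. Ratios carry exact conditional binomial intervals at 95% and shares exact Clopper-Pearson intervals. A pool at 0 was set at a floor of 3 UMIs over the pool, and its ratio is a bound. Thinning drew 4000 UMIs per cell (seed 1), and shallower cells were left out (1 to 7 per class in the tumour conditions, and up to 13 in naive nodes). On simulated counts, 99% of 2-fold changes were recovered in Foxp3 cells (9105 genes), 98.5% in Cd4 cells without Foxp3 (8979 genes) and 100% in Cd8 cells (10206 genes), and 95.1%, 95.6% and 95.3% of the intervals held the true ratio. The simulated counts were drawn independently, as the interval assumes, so about 95% was set in advance. They hold no clustering of UMIs in droplets, so recovery and coverage in these pools were not tested.

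Named genes were, per class, the 12 highest and the 12 lowest ratios with an interval that excludes 0, the 2 to 4 members with the largest ratio of each list described, and 27 genes wherever measured. Some of these genes are counted in their lists but not reported by name here. Immunoglobulin, receptor segment, mitochondrial and unnamed-locus genes were counted only. The members, the gene lists and this rule were chosen with earlier results of these data known. Positions on GRCm38 (mm10) are those of GENCODE, and promoters those of RefSeq. The alternatives tried were other limits on hashtags, depth and mitochondrial share, stricter gates, thinning, other scalings and filters, and removal of single droplets. The software was pandas 2.3.3, scipy 1.17.1 and numpy 2.4.6 under Python 3.11.15.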

Additional observations from a re-analysis of the deposited data

Results flagged for a closer look

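Of the named genes, 6 were past 1.5-fold in opposite directions in 2 classes. The difference between the classes was not tested for any of them. Tox2 was higher in 4T1 in Cd4 cells without Foxp3 (0.95) and lower in Cd8 cells (-0.69), a gap of 1.64 on the log2 scale, and the Cd8 value rests on 46 and 75 UMIs. Gzmb was higher in 4T1 in Foxp3 cells (0.73) and lower in Cd4 cells without Foxp3 (-1.87), a gap of 2.59. Plac8 was higher in Cd4 cells without Foxp3 (1.54) and lower in Foxp3 cells (-1.03), a gap of 2.57.

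Ifngas1, a noncoding RNA beside Ifng, was higher in Cd4 cells without Foxp3 (1.51) and lower in Foxp3 cells (-0.65), a gap of 2.16. Mt2, a metallothionein, was higher in Cd8 cells (1.21) and lower in Cd4 cells without Foxp3 (-2.47), a gap of 3.67. The values of Ifngas1 and Mt2 in Cd4 cells without Foxp3 changed sign under a stricter gate. Ccl1, a chemokine, was higher in Cd8 cells (6.42) and lower in Cd4 cells without Foxp3 (-0.95), a gap of 7.37, and 77 of its 85 UMIs in Cd8 cells of 4T1 lay in 1 droplet.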

How the results depend on the processing

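No paired analysis was possible because each condition is 1 pool, and no replicate could be left out. The counts of called genes followed the limit on UMIs, and the cause was not tested for the others. With at least 20 UMIs in the higher pool, 355 genes were higher in 4T1 and 354 in 67NR in Foxp3 cells, 551 and 299 in Cd4 cells without Foxp3 and 317 and 327 in Cd8 cells. With no limit the counts were 3081 and 2555, 2772 and 3018, and 3127 and 2639. With at least 200 UMIs they were 8 and 22, 44 and 23, and 5 and 18. At least 2-fold, they were 18 and 29, 47 and 41, and 20 and 23. Thinned to 4000 UMIs per cell, they were 82 and 76, 131 and 71, and 68 higher in 67NR in Cd8 cells. With the mean of CPM per cell, 204 were higher in 4T1 in Foxp3 cells.

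Shares of 4T1 and 67NR under the stricter gate were 16.7% and 18.2% for Foxp3 cells, 17.1% and 17.4% for Cd4 cells without Foxp3 and 42.8% and 42.4% for Cd8 cells. Thinned, they were 15.4% and 16.6%, 20.3% and 21.3%, and 40.0% and 39.6%. Without Cd4-gate droplets that hold a Cd8 UMI, added after the data were seen, Cd4 cells were 21.0% and 20.7%. The alternative with the second hashtag under 10 left 8 cells of 4T1 and 5 of 67NR and gave no values.

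In Foxp3 cells the sign turned for Xcl1 (0.33) and Cd46 (-0.38) after thinning and for Gzma (-0.10) without the top droplets. It also turned for Eomes (0.069) under the stricter gate and for Ms4a1 (-0.95) with a hashtag ratio of 10. Il1b had no UMI in Foxp3 cells of 4T1. Its values after thinning (0.15) and without the top droplets (0.0026) are therefore bounds set by the floor. In Cd4 cells without Foxp3 the sign turned under the stricter gate for Fgl2 (-0.36), Mt2 (0.34), Samd3 (-1.24), Ifngas1 (-0.49), Ccl5 (0.13) and Ly6c2 (-0.34). Without droplets holding a Cd8 UMI it turned for Mt2 (0.43), Samd3 (-0.74), Ifngas1 (-0.16) and Tyrobp (1.43). Tyrobp also turned with a hashtag ratio of 10 (0.16) and, like Lyz2 (0.72), without droplets holding B cell or myeloid markers (2.53), both added after the data were seen except the hashtag ratio. In Cd8 cells the sign turned for Il1b without the top droplets (0.43), and for Il1b (0.45) and Lyz2 (1.45) without B cell or myeloid droplets. It also turned for Itgb8 (0.23) after thinning and for Ptprm (-0.24) under the stricter gate. Cxcl2 and Cd14 had no UMI left in 4T1 without the top droplets, so their values (0.013 each) are bounds set by the floor. Of the other ratios of named genes under an alternative, 4077 moved by less than their counting interval and 405 moved beyond it with the same sign or without a call. Of the 4077, 400 come from the limit of 20 UMIs, which leaves each ratio as it was and could not move it. A further 400 come from centring on the median ratio, which shifts all ratios of a class alike. Thinning moved 173 ratios beyond the interval and turned 4, among them the bound of Il1b in Foxp3 cells, while 223 stayed. The mean of CPM per cell moved 112, while 288 stayed. Depth limits what low genes can show: most called genes had under 10 CPM in Foxp3 cells.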

Other observations

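Gene groups not described above differed little. In Foxp3 cells all 26 measured genes of translation initiation and elongation had a ratio above 0, with a median of 0.11 and none past 1.5-fold. On the list of apoptosis and survival 23 of 26 genes lay below 0 (median -0.19), and 28 of 32 genes of cytokine receptors and the Stat pathway did (median -0.13). In Cd4 cells without Foxp3 the genes of sterol and lipid synthesis had a median of 0.29, against 0.04 over all measured genes. Of its 17 measured genes 4 lay below 0, against 41.2% of all measured genes, and 1 was called higher (against 2.68%). Idi1, an enzyme of that pathway, stood at 30.0 CPM in 4T1, 20.2 in 67NR and 33.3 in naive cells (0.57, 0.28 to 0.87). In Cd8 cells 16 of the 18 measured genes of this list lay below 0, with a median of -0.12.

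Cd3e cells in none of the 3 classes were 5.78% of 4T1, 5.34% of 67NR and 8.72% of naive cells, with median UMIs of 7791, 7853 and 7743. Of them 0, 2 and 4 held a UMI of Trdc, the constant region of the delta chain.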
